A study of Mus musculus with 42 samples.

Results

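Cell cycle and mitosis genes are described here in MC38 tumors of CC75×B6 mice. The members were 42 genes named by symbol, picked for a known place in the division cycle, with earlier results of these data known, and all 42 were found among the 26811 Ensembl identifiers of the count table. They fall into 9 replication genes (Mcm2 to Mcm7, Rrm1, Rrm2 and Pcna), 5 other replication factors (Cdc45, Gins2, Cdc6, Cdt1 and Tyms), 4 regulators of the step from G1 to S phase (E2f1, Mybl2, Ccne1 and Ccne2), 4 G2 regulators and chromosome markers (Ccna2, Foxm1, Top2a and Mki67) and 20 mitotic genes (Cdk1, Ccnb1, Ccnb2, Plk1, Aurka, Aurkb, Bub1, Bub1b, Ttk, Ndc80, Cenpa, Cenpe, Cenpf, Cdc20, Birc5, Kif11, Kif20a, Kif23, Nusap1 and Tpx2).

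MC38 is a transplantable mouse colon carcinoma line, and its cells were placed under the skin of female F1 mice (CC075/UncJ x C57BL/6J, here CC75×B6) that were 8 to 12 weeks old. All 5 groups carried the same line and genotype, and the labels set them apart by treatment. Every 3 days until the tumor reached 75 to 110 mm3, mice received 100 μg of aGM-CSF, which neutralizes the myeloid growth factor GM-CSF, 200 μg of aIL2RB, which binds the IL-2 receptor beta chain of T and NK cells, or matching isotype antibodies. A single dose of 200 μg of aPD1, a checkpoint blocking antibody, or of its isotype then followed, and whole tumors were taken 48 h later for poly(A) RNA-seq. There were 5 isotype and 6 aPD1 tumors, 9 that had aGM-CSF added to aPD1 (aPD1 + aGM-CSF), 11 with aIL2RB added (aPD1 + aIL2RB) and 11 with both added (aPD1 + aGM-CSF + aIL2RB).

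Dividing cells switch these genes on in order. E2F factors start the G1/S genes, the MCM helicase is loaded on replication origins and unwinds DNA while ribonucleotide reductase supplies deoxynucleotides and PCNA clamps the polymerases, and MYBL2 and FOXM1, with the MuvB core, drive the later wave of cyclins, kinases and kinetochore proteins used in mitosis. In a tumor, messenger RNA of these genes comes from the cancer cells and from any dividing immune or stromal cell.

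Library totals lay between 7155486 and 24101674 counts (median 20215382), and the 42 members took 0.468% to 0.641% of them. Labels number the tumors as biological replicates but do not tie them to cages or days, so p-values measure the spread between these tumors. Along the first principal component of the residuals after treatment, tumors with earlier replicate numbers (isotype 1 and 2, aPD1 1 to 3, aPD1 + aGM-CSF 1 to 5 and 1 to 6 of both aIL2RB groups) lay below 0 in 19 of 22 cases, and those with later numbers lay above 0 in 18 of 20. Neither the labels nor the methods name this division, which was seen in the data, and the values within the sets of earlier and later numbers are given beside the results. Shisal2b, the gene by which the study marked MC38 cells, was present in every tumor, with medians of 14.8 to 25.6 CPM by group (counts scaled by TMM to a common library size). The 5 epithelial markers tested (Krt8, Krt18, Krt19, Cldn4 and Epcam) were low, with summed medians of 0.49 to 9.93 CPM by group, and Krt18 was at 0 in at least 1 tumor of each.

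At the level of single tumors, transcripts of all members were abundant and moved within a narrow range. Per kilobase of its longest transcript, Top2a, the topoisomerase that untangles chromosomes, had the highest mean level (190.2 CPM per kb), followed by Pcna (124), Mcm3 (71.1) and Rrm2 (70.2), and the licensing factor Cdc6 had the lowest (8.51). Spread between tumors of the same group was smallest for Top2a (SD of 0.08 on the log2 scale) and largest for Mki67 (0.23), the proliferation marker Ki-67. After subtracting group means over all 42 tumors, the correlation between pairs of replication genes had a median of 0.67 over 36 pairs, against 0.44 over 190 mitotic pairs and 0.40 over 180 mixed pairs. These correlations share libraries and depth and are given as a description. In the GENCODE vM21 annotation of GRCm38, all members are protein-coding genes. Pcna (ENSMUSG00000027342) lies at chr2:132249162-132253314, Mybl2 (ENSMUSG00000017861) at chr2:163054687-163084688, Mcm3 (ENSMUSG00000041859) at chr1:20802968-20820312, Ccnb2 (ENSMUSG00000032218) at chr9:70407692-70421547 and Top2a (ENSMUSG00000020914) at chr11:98992943-99024189, and counts cover their exons.

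Mki67 measured 631, 413, 617, 370.3 and 587 CPM in isotype replicates 1 to 5, 429 to 707 CPM in aPD1 alone (median 521), 489 to 747 with aGM-CSF added (median 582), 374 to 655 with aIL2RB added (median 528) and 521 to 656 with both added (median 618). All 5 groups overlapped widely. Top2a measured 1127, 976, 1063, 999 and 1051 CPM in isotype, 918 to 1127 in aPD1 (median 967), 1032 to 1109 with aGM-CSF added (median 1065), 796 to 1008 with aIL2RB added (median 958) and 870.3 to 1035 with both added (median 968). Tumors of aPD1 + aGM-CSF were the tightest group for Top2a, with a mean of 1069.6 ± 27.2 CPM (SD, n = 9). Cdk1, the mitotic kinase, had means of 127 ± 9.06 CPM in isotype (SD, n = 5), 117 ± 11.2 in aPD1 (n = 6), 116 ± 11.2 with aGM-CSF added (n = 9), 116 ± 11.7 with aIL2RB added (n = 11) and 107 ± 7.61 with both added (n = 11).

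Among other members, cyclin B1 (Ccnb1) averaged 124 ± 4.27 CPM in isotype, 111 ± 14.7 in aPD1, 122 ± 11.3 with aGM-CSF added, 116 ± 7.04 with aIL2RB added and 113 ± 6.16 with both added, with the same numbers of tumors as above. Foxm1 lay between 97.7 and 133 CPM in all 42 tumors, and E2f1 between 39.4 and 60.3 CPM. Both regulators overlapped between all groups. Mcm2 averaged 130.4 ± 7.81 CPM in isotype, 118 ± 7.96 in aPD1, 121 ± 6.54 with aGM-CSF added, 113 ± 10.2 with aIL2RB added and 115 ± 9.39 with both added. Mcm5 averaged 154 ± 7.35, 147 ± 10.5, 143 ± 11.1, 132 ± 17.04 and 133 ± 16.1 CPM in the same order of groups. Rrm2, the regulated subunit of ribonucleotide reductase, averaged 168 ± 18.8, 167 ± 12.3, 156 ± 13.2, 146 ± 18.2 and 146 ± 16.2 CPM in these groups. Ordered by mean, neighbouring groups lay within the larger of their SDs for Ccnb1, Mcm5 and Rrm2, while for Mcm2 the isotype mean stood above the next group by more than either SD.

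**Figure D1:**
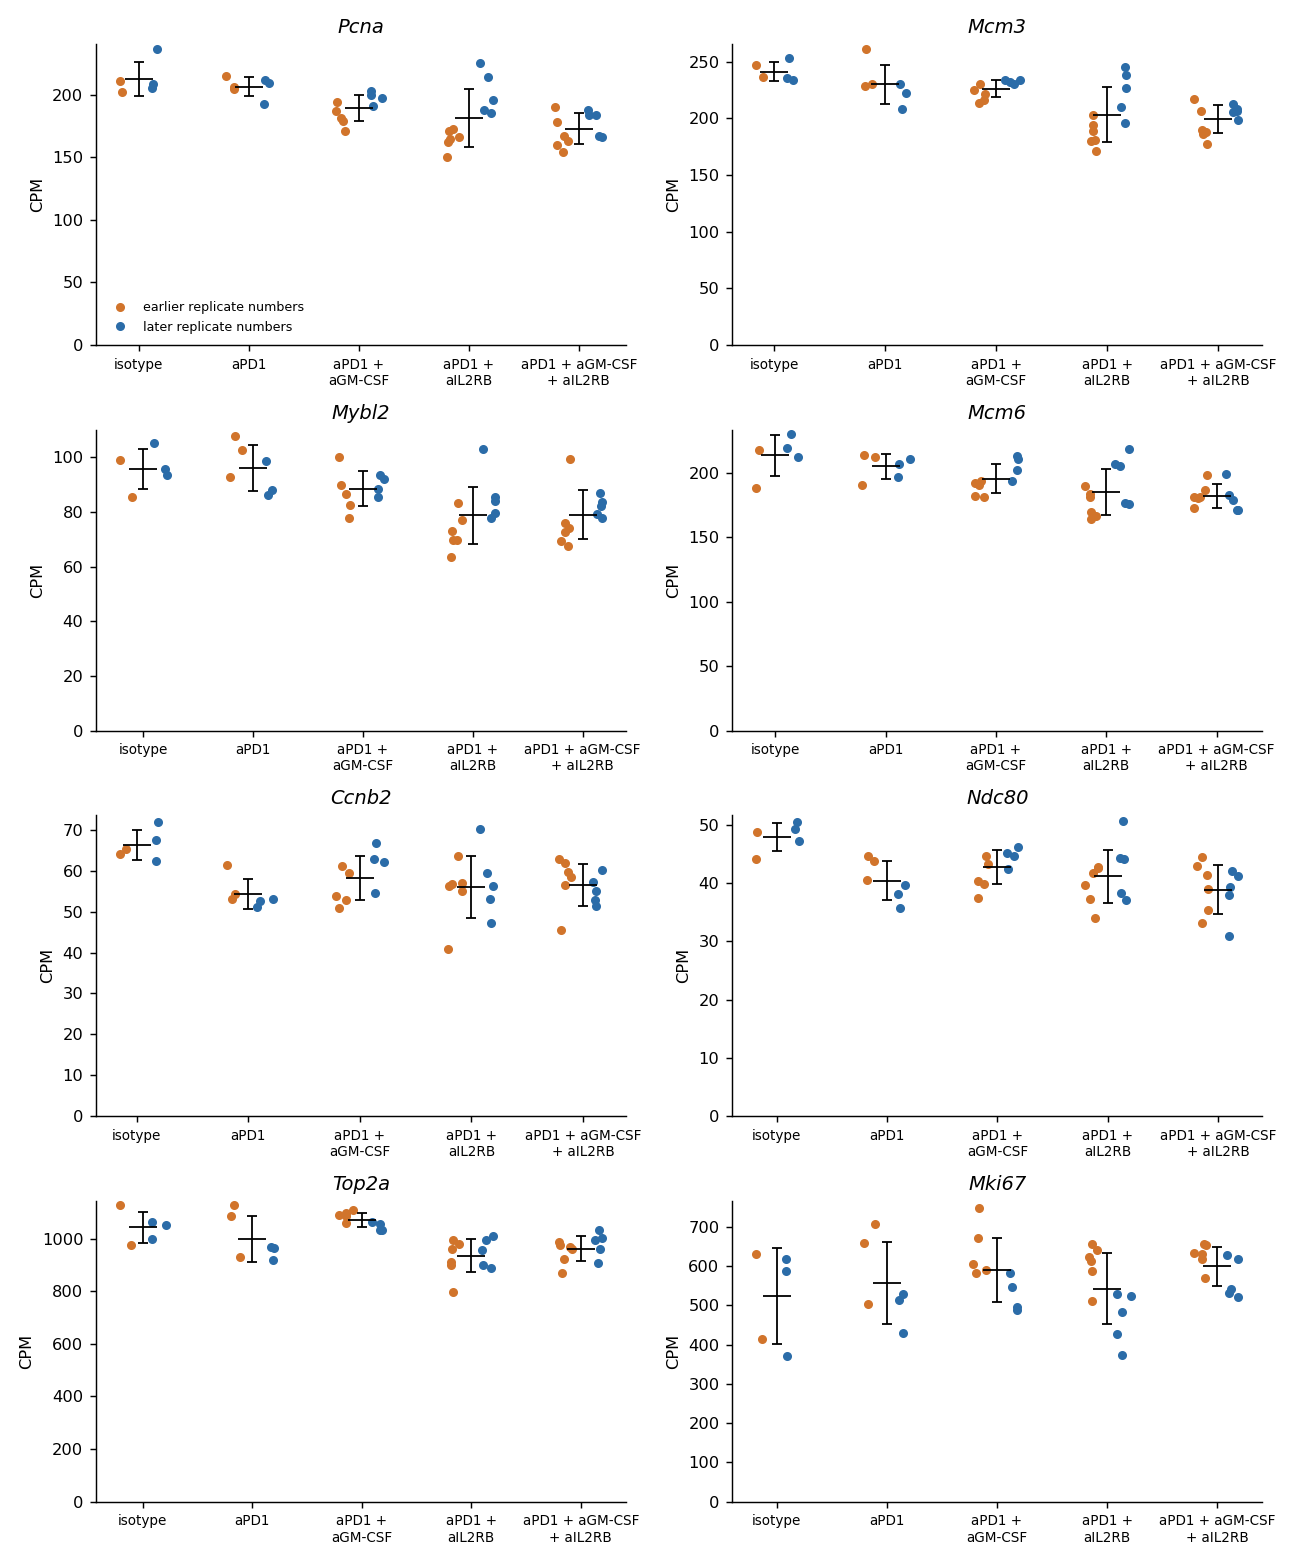
CPM of Pcna, Mcm3, Mybl2, Mcm6, Ccnb2, Ndc80, Top2a and Mki67 in each of the 42 tumors by group, with the mean ± SD as bars, earlier replicate numbers in orange and later numbers in blue. Pcna in the 11 aPD1 + aGM-CSF + aIL2RB tumors lies below all 6 aPD1 tumors, while Mki67 overlaps between all groups.

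Promoter sequence of RefSeq (GRCm38.p6, 250 bases before to 50 after the start) was matched for 34 of the 42 members, which gave 35 promoters of 300 bases. The box CCAAT was found in 74.3% of them (26 of 35), against 37.4% of all 32851 promoters in the table. TTTGAA, the core letters of the CHR element known from mitotic promoters, was in 45.7% (16 of 35) against 17.9%. It was in 12 of 17 mitotic promoters (70.6%) and 1 of 9 replication promoters (11.1%). These 9 promoters belong to 8 replication genes, as Mcm7 has more than 1 and Mcm4 was not matched. TTTNGCGC, the letters of an E2F box, was in 17.1% (6 of 35) against 1.38%, in 4 of 9 replication promoters (44.4%) and in 1 of 17 mitotic promoters (5.88%). Both strands were searched, the 3 motifs were counted separately with overlap allowed, and a match is only a match of letters. The promoters of Ccnb2 and Top2a, which turn up below among mitotic and G2 genes, and of Mcm3 and Mcm6, which turn up among replication genes, are printed 5′ to 3′ on the strand of the gene, with matches on either strand in capitals.
Ccnb2: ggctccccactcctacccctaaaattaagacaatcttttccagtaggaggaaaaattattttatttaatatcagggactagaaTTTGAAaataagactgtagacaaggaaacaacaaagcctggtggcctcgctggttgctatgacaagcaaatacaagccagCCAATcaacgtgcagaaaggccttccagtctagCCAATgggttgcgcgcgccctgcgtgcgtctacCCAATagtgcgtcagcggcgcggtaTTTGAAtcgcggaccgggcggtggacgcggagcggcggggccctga
Top2a: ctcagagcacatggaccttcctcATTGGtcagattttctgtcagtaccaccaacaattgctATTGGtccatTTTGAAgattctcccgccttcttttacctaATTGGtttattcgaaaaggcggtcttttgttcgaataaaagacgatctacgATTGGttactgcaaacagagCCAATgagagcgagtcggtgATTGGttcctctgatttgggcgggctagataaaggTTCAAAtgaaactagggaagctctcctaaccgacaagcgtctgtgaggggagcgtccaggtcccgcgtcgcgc
Mcm3: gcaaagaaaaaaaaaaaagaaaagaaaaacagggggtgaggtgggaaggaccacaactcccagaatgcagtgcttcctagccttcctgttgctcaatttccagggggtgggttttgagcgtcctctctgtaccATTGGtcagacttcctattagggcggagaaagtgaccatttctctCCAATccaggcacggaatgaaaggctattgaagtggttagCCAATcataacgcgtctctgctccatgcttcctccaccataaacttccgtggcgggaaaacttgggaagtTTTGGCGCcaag
Mcm6: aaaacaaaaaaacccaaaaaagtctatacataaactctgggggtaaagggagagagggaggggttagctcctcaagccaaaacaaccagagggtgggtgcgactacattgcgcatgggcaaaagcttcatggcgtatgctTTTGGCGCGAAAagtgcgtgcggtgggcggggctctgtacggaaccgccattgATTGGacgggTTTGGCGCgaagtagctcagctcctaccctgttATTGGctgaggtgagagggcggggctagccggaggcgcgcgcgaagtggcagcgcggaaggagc

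Ccnb2 (minus strand, chr9:70421505-70421804) held CCAAT at positions -87, -54 and -21 from the start and TTTGAA at -167 and 5. Top2a (minus strand, chr11:99024140-99024439) held 6 CCAAT and 2 TTTGAA matches. TTTNGCGC was in neither. Mcm3 (minus strand, chr1:20820263-20820562) held 3 CCAAT matches and TTTNGCGC at 39, and Mcm6 (minus strand, chr1:128359656-128359955) held 2 CCAAT matches and TTTNGCGC at -110, -106 and -47.

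The first comparison asked what a single dose of aPD1 did to these genes against isotype. Of the members, 3 mitotic genes were called lower in aPD1 tumors and no replication gene was called. Cyclin B2 (Ccnb2), partner of CDK1 at entry into mitosis, Ndc80, the kinetochore protein that grips microtubules, and Nusap1, which bundles spindle microtubules, fell by 18.1%, 15.7% and 13%, and no member rose where 6.17% of all genes did. Ccnb2 measured 65.2, 64.2, 67.6, 72.0 and 62.4 CPM in isotype replicates 1 to 5 and 51.1 to 61.5 CPM (median 53.1) in the 6 aPD1 tumors. All aPD1 tumors lay below all isotype tumors for Ccnb2, as they did for 1.13% of all genes. The log2 fold change of Ccnb2 was -0.29 (SE 0.09, adjusted p = 0.031 in edgeR's quasi-likelihood test).

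Ndc80 measured 48.7, 44.2, 50.4, 49.3 and 47.2 CPM in isotype and 35.8 to 44.6 CPM (median 40.1) in aPD1 tumors, and Nusap1 73.3, 68.4, 76.1, 69.6 and 72.4 CPM against 51.5 to 71.9 (median 63.5). For each of them the highest aPD1 tumor reached the isotype range. By edgeR's quasi-likelihood test, Ndc80 changed by -0.25 (SE 0.08, adjusted p = 0.049) and Nusap1 by -0.20 (SE 0.06, adjusted p = 0.043) on the log2 scale. These 3 of 42 members were called lower where 2.54% of all 16932 genes tested were, and all 3 were among the 20 mitotic genes. Values were negative for 20 of 20 mitotic genes (median -0.14) and 9 of 9 replication genes (median -0.06), and the median over all genes tested was -0.00229. The count of 3 was 10 with scaling by library size alone (all genes 6.93% lower) and 5 with the set of replicate numbers as a term (3.57%). It was 1, Ccnb2, with size factors of DESeq2 (2.1%) or a filter of at least 5 counts in all (1.11%). The 3 members with the next smallest p, the spindle assembly factor Tpx2 (-0.19, adjusted p = 0.0504), cyclin A2 (Ccna2, -0.18, adjusted p = 0.058) and the APC/C activator Cdc20 (-0.26, adjusted p = 0.059), missed the threshold of 0.05 in edgeR's quasi-likelihood test and are named although the rule for named genes did not choose them.

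Members were called for aPD1 against isotype within the later numbers and not within the earlier ones. No member passed a test of the difference between the sets itself. Within the later set, 10 members were called lower (all genes 3.67%), 8 of them mitotic, with a member median of -0.14. Within the earlier set, 2 isotype and 3 aPD1 tumors remained and the member median was -0.01. There edgeR's quasi-likelihood test called 0 members, where 0.00591% of all genes were lower at an adjusted p under 0.05. At an unadjusted p under 0.05 there were 2 members, and the share of all genes at that threshold is not given. For Ccnb2 the log2 changes were -0.20 in the earlier and -0.36 in the later set, for Ndc80 -0.11 and -0.36 and for Nusap1 -0.06 and -0.34. No member was called without isotype replicate 1, 3 or 4 or aPD1 replicate 4, 5 or 6, 1 was called without isotype replicate 5, 5 without aPD1 replicate 2 and 8 without aPD1 replicate 3. Ccnb2 lost its call without any of the first 6 of these tumors, Nusap1 also without isotype 5 and Ndc80 also without isotype 5 or aPD1 2. For runs that leave out a tumor, here and below, the share of all genes called is mostly not given. Such counts do not show whether members moved more than other genes.

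Other cells moved in the same comparison. Of the fixed cell type markers, 9 of 10 genes of macrophages and monocytes were higher in aPD1 than in isotype tumors (2720 to 3269 summed CPM in isotype, 3178 to 6129 in aPD1), as were 5 of 6 skeletal muscle genes (0.23 to 35.1 against 0.69 to 758 summed CPM). T and NK cell markers were called in 0 of 12 cases by edgeR's quasi-likelihood test, with 73.7 to 86.3 summed CPM in isotype and 108 to 238 in aPD1 tumors. Granulocyte markers, of which 1 of 4 was called higher, did not overlap either (10.3 to 14.2 against 17.5 to 43.9 summed CPM). Most of that sum was Csf3r, with a median of 10.7 CPM in isotype and 30.3 in aPD1. The other medians were low, and from isotype to aPD1 they went from 0.228 to 0.179 CPM for S100a8, from 0.706 to 0.485 for S100a9 and from 0.403 to 0.873 for Cxcr2. B cell markers were higher in 2 of 5 cases (19.9 to 39.2 against 30.4 to 70.7 summed CPM), endothelial markers in 2 of 6 (125 to 171 against 145 to 212), and of 9 fibroblast markers 3 were higher and 1 lower (2703 to 5304 against 3572 to 4723). Shisal2b, the marker of MC38 cells, lay between 18.1 and 24.8 CPM (median 20.1) in isotype and between 8.80 and 21.4 (median 14.8) in aPD1 tumors (log2 change -0.47, adjusted p = 0.15 in edgeR's quasi-likelihood test). The 5 rRNA genes took 1.72% to 8.55% of counts in isotype and 4.57% to 17.9% in aPD1 tumors. In whole tumors, fewer dividing cells and less RNA of these genes per cell cannot be told apart, and the part of other cell types in the fall was not tested.

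**Figure D2:**
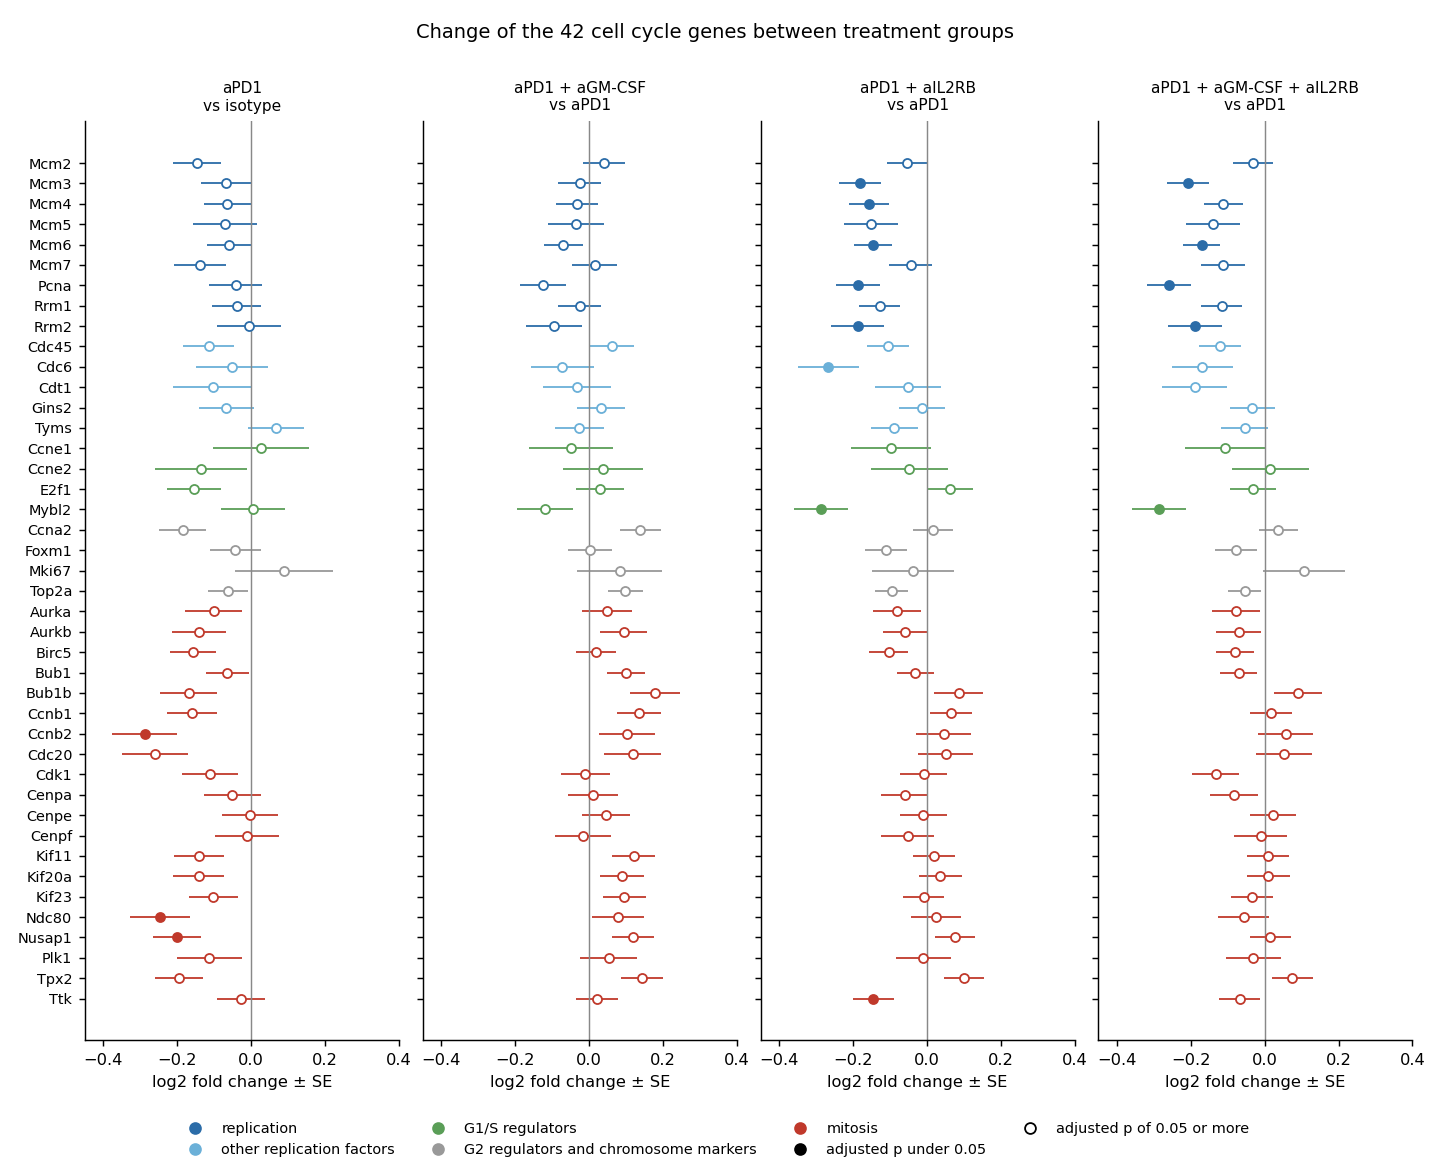
Log2 fold change ± SE of each of the 42 members in the main comparisons, grouped by role, with filled points for an adjusted p under 0.05. The 3 filled points of aPD1 against isotype are mitotic genes, while 5 of the 8 of aPD1 + aIL2RB against aPD1 are replication genes.

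Blocking IL2RB before aPD1 was compared with aPD1 alone, and here 5 of 9 replication genes fell, against 1 of 20 mitotic genes. No member was higher and 8 of 42 were lower, against 13% of all genes called higher and 14.5% lower. Of 9 replication genes 5 fell: Mcm3, Mcm4 and Mcm6, subunits of the replicative helicase, the sliding clamp Pcna, and Rrm2. With them fell 1 of 5 other replication factors (Cdc6, which loads the helicase), 1 of 4 G1/S regulators (Mybl2, the B-Myb transcription factor), 0 of 4 G2 regulators and chromosome markers and 1 of 20 mitotic genes (Ttk, the spindle checkpoint kinase MPS1). Median log2 changes were -0.15 for replication, -0.09 for other replication factors, -0.07 for G1/S and for G2 genes and -0.01 for mitotic genes, of which 9 were above and 11 below 0, and 0.00356 for all genes tested.

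Mybl2 lay between 86.3 and 108 CPM (median 95.8) in aPD1 and between 63.7 and 103 (median 77.7) in aPD1 + aIL2RB tumors, and Pcna between 193 and 215 (median 208) and between 150.0 and 226 (median 173). Both ranges overlapped: 1 of 11 aPD1 + aIL2RB tumors reached the aPD1 range for Mybl2 and 3 did for Pcna, of which replicate 7 lay above it. Mcm3 lay between 208 and 261 CPM (median 229) and between 171 and 245 (median 196). Cdc6 lay between 38.1 and 46.4 CPM (median 42.7) and between 29.1 and 43.3 (median 34.4). For all 4 genes the median aPD1 + aIL2RB tumor lay below the lowest aPD1 tumor. In edgeR's quasi-likelihood test the log2 changes were -0.29 for Mybl2 (SE 0.07, adjusted p = 0.0025), -0.27 for Cdc6 (SE 0.08, adjusted p = 0.012), -0.18 for Mcm3 (SE 0.06, adjusted p = 0.014) and -0.19 for Pcna (SE 0.06, adjusted p = 0.016). Mcm4 fell by 10.3% (adjusted p = 0.026), Mcm6 by 9.6% (adjusted p = 0.028), Ttk by 9.6% (adjusted p = 0.043) and Rrm2 by 12.2% (adjusted p = 0.048) in the same test.

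Replication genes were called lower under aIL2RB within the earlier numbers and not within the later ones. Within the earlier set (6 against 3 tumors) 14 members were lower, where 9.33% of all genes were, and they included 9 of 9 replication genes, with a replication median of -0.30. Within the later set (5 against 3) that median was -0.01 and no member was lower by edgeR's quasi-likelihood test. The share of all genes lower in that set is not given, so whether having no lower member is unusual cannot be read here. In the same test 2 mitotic genes were higher, Tpx2 (0.23, adjusted p = 0.0052) and Ccnb1 (0.23, adjusted p = 0.019), where 8.73% of all genes were. These 2 are named after their values were seen. Mybl2 changed by -0.48 in the earlier and -0.10 in the later set, Cdc6 by -0.42 and -0.12, Pcna by -0.34 and -0.04, and Mcm4 by -0.30 and -0.02. Mcm3 changed by -0.37 in the earlier set and by 0.00486 in the later one. The difference between the sets was itself past the threshold for Mcm5, which changed by -0.39 in the earlier and 0.08 in the later set (difference 0.48, adjusted p = 0.0072 in edgeR's quasi-likelihood test, where 0.1% of all genes passed).

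**Figure D3:**
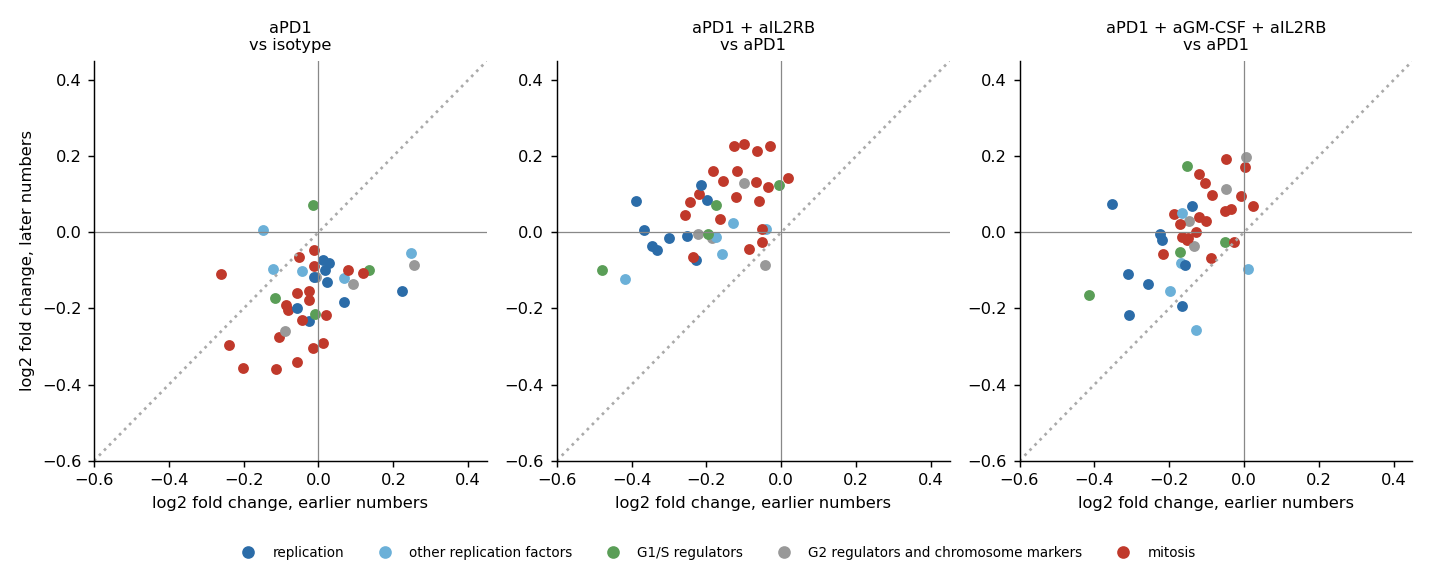
Log2 fold change of each of the 42 members within the earlier replicate numbers (x axis) and within the later ones (y axis) for aPD1 against isotype, aPD1 + aIL2RB against aPD1 and aPD1 + aGM-CSF + aIL2RB against aPD1. Replication genes of aPD1 + aIL2RB lie around a median of -0.30 on the x axis and -0.01 on the y axis.

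Mybl2, Cdc6 and Pcna kept their calls against aPD1 when any of the 17 aPD1 or aPD1 + aIL2RB tumors was left out. Mcm3 lost its call without aPD1 replicate 3, Mcm4 without aPD1 1 or 3 or aPD1 + aIL2RB 1, and Mcm6 without aPD1 1, 3, 4 or 6 or aPD1 + aIL2RB 1 or 4. Rrm2 kept it only without aPD1 5 or aPD1 + aIL2RB 7 or 9, and Ttk only without aPD1 4 or aPD1 + aIL2RB 2, 7, 8 or 11. The count of 8 became 3 without aPD1 3, 4 without aPD1 1 or aPD1 + aIL2RB 1, and 5 without aPD1 6 or aPD1 + aIL2RB 4. With scaling by library size alone, Mybl2 was the only one of the 8 still called (all genes 11.7% lower), and Tpx2 was called higher (18.5%, named after its values were seen). With only the 2 groups in the model, Mybl2 and Cdc6 were called (all genes 12.9% lower). T and NK cell markers were lower in 11 of 12 cases (5.30 to 55.4 summed CPM against 108 to 238), macrophage and monocyte markers in 8 of 10 (2264 to 3189 against 3178 to 6129), and of 9 fibroblast markers 4 were higher and 4 lower (4649 to 6515 against 3572 to 4723 summed CPM). B cell markers were lower in 3 of 5 cases (12.5 to 28.7 against 30.4 to 70.7 summed CPM) and granulocyte markers in 1 of 4 (6.30 to 16.4 against 17.5 to 43.9), and neither sum overlapped. The granulocyte sum was again mostly Csf3r (median 9.90 CPM with aIL2RB added, 30.3 in aPD1). Shisal2b was higher, at 19.1 to 28.3 CPM against 8.80 to 21.4 (log2 change 0.70, adjusted p = 0.0024 in edgeR's quasi-likelihood test). The part of these cells in the fall of the replication genes was not tested.

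Tumors given both blocking antibodies were likewise compared with aPD1 alone, with the same 6 aPD1 tumors as reference. In them 5 members were lower and none higher, against 14.3% of all genes lower and 13.1% higher: Pcna, Mcm3, Mcm6 and Rrm2 of the 9 replication genes, and Mybl2. No mitotic gene passed, and medians were -0.14 for replication and -0.02 for mitotic genes, against 0.0107 for all genes tested. Pcna lay between 155 and 191 CPM (median 167) in aPD1 + aGM-CSF + aIL2RB tumors against 193 to 215 (median 208) in aPD1. All 11 tumors lay below all 6 aPD1 tumors for Pcna, as they did for 0.827% of genes. Pcna changed by -0.26 (SE 0.06, adjusted p = 0.0010 in edgeR's quasi-likelihood test) and was lower in both sets (-0.31 earlier, adjusted p = 0.0053, and -0.22 later, adjusted p = 0.018).

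Mybl2 lay between 67.6 and 99.3 CPM (median 77.8) with both antibodies, Mcm3 between 177 and 217 (median 205), Mcm6 between 172 and 199 (median 181) against 190 to 214 (median 209) in aPD1, and Rrm2 between 131 and 182 (median 139) against 155 to 189 (median 164). Each of these 4 ranges overlapped that of aPD1. In edgeR's quasi-likelihood test Mybl2 changed by -0.29 (SE 0.07, adjusted p = 0.0027), Mcm3 by -0.21 (SE 0.06, adjusted p = 0.0048), Mcm6 by -0.17 (SE 0.05, adjusted p = 0.0097) and Rrm2 by -0.19 (SE 0.07, adjusted p = 0.047). Pcna, Mybl2, Mcm3 and Mcm6 were called whichever of the 17 tumors was left out, while Rrm2 was called only without aPD1 5 or 6 or aPD1 + aGM-CSF + aIL2RB 3, 4 or 10. Within the earlier set 4 members were lower (Pcna, Mybl2, Mcm3 and Mcm5, all genes 2.58%), and within the later set Pcna and Mcm6 were lower (all genes 16.4%) and Tpx2 was higher (0.19, adjusted p = 0.012, all genes 12.8%), with Mcm5 and Tpx2 named after their values were seen. Mcm5 again differed between the sets (-0.35 earlier, 0.07 later, difference 0.44, adjusted p = 0.0012 in edgeR's quasi-likelihood test, all genes 9.18%). With library size alone as scaling, Pcna and Mybl2 were called (all genes 11.1% lower). T and NK cell markers were lower in 12 of 12 cases (0.98 to 118 summed CPM), macrophage and monocyte markers in 8 of 10 (1917 to 4063), and fibroblast markers were higher in 5 and lower in 1 of 9 (5060 to 6706 summed CPM), B cell markers were lower in 2 of 5 cases (14.1 to 27.7), granulocyte markers in 2 of 4 (4.85 to 30.02), endothelial markers were higher in 2 of 6 (172 to 229 against 145 to 212), and Shisal2b lay between 11.1 and 28.8 CPM (log2 change 0.39, adjusted p = 0.091 in edgeR's quasi-likelihood test). Their part was not tested.

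Blocking GM-CSF before aPD1 left every member within the threshold against aPD1 alone. No member was called by edgeR's quasi-likelihood test (7 at an unadjusted p under 0.05) or by DESeq2. At an adjusted p under 0.05, 4.77% of all genes were higher and 8.75% lower. Over both sets of replicate numbers, 18 of 20 mitotic genes and 4 of 4 G2 genes were above 0 (medians 0.09 and 0.09), and 7 of 9 replication genes were below 0 (median -0.03), beside 0.00664 for all genes. Signs differed between the sets: in the earlier one 16 of 20 mitotic genes were below 0 (median -0.03) and in the later one 0 were (median 0.21). No member passed the test of the difference between the sets in this comparison. The smallest p belonged to Bub1b, the checkpoint kinase BUBR1, at 94.8 to 113 CPM (median 104) in aPD1 and 104 to 131 (median 118) in aPD1 + aGM-CSF tumors, with a log2 change of 0.18 (SE 0.07, adjusted p = 0.074 in edgeR's quasi-likelihood test). Tpx2 (0.14, SE 0.06, adjusted p = 0.086) and Ccna2 (0.14, SE 0.06, adjusted p = 0.087) followed in that test.

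Within the later set of aPD1 + aGM-CSF against aPD1 (4 against 3 tumors), 5 late genes were higher, where 5.26% of all genes were: Ccnb1 (0.33), Tpx2 (0.28), Ccna2 (0.27), Cdc20 (0.27) and Nusap1 (0.25), of which Ccnb1, Cdc20 and Nusap1 are named after their values were seen. Within the earlier set (5 against 3) Tpx2 and Ccna2 changed by 0.01 each and the member median was -0.06, against 0.12 in the later set. Without aPD1 replicate 2 the count rose to 4, and without aPD1 3 or aPD1 + aGM-CSF 1 to 3. Macrophage and monocyte markers were lower in 9 of 10 cases (2420 to 2910 summed CPM), granulocyte markers in 3 of 4 and T and NK cell markers in 3 of 12 (42.3 to 101), Shisal2b lay between 15.2 and 31.3 CPM (log2 change 0.49, adjusted p = 0.065 in edgeR's quasi-likelihood test), and their part was not tested. With library size alone as scaling, Bub1b, Tpx2 and Ccna2 were called higher (all genes 8.28%), and with only these 2 groups in the model Bub1b was (5.25%).

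Against isotype, the reference without aPD1, members were lower in both groups given aIL2RB. These comparisons share the 5 isotype tumors with each other and with that of aPD1. In aPD1 + aGM-CSF tumors no member and 0.0% of all genes were called by edgeR's quasi-likelihood test, and 0 members by DESeq2. At an unadjusted p under 0.05 there were 5 members, and the share of all genes at that threshold is not given. The member median was -0.06, and the smallest p in edgeR's quasi-likelihood test belonged to Pcna (-0.17, adjusted p = 0.88), Birc5 (-0.14, adjusted p = 0.88) and Ccnb2 (-0.19, adjusted p = 0.89). Mcm3 was the 1 member whose 9 aPD1 + aGM-CSF tumors all lay below the isotype tumors, as 0.154% of genes did. The groups nearly touched, with the highest aPD1 + aGM-CSF tumor at 233.59 CPM and the lowest isotype tumor at 233.683.

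In aPD1 + aIL2RB tumors 9 of 42 members were lower than in isotype, against 1.51% of all genes lower and 1.7% higher, 41 of 42 values were negative and the median was -0.16 (0.0115 for all genes). They were 5 of 9 replication genes, Cdc45 and Cdc6, Mybl2 and, among 20 mitotic genes, Birc5, the survivin subunit of the chromosomal passenger complex. Birc5 measured 96.2, 100.5, 106, 112 and 110.0 CPM in isotype and 76.4 to 104 (median 86.9) in aPD1 + aIL2RB tumors. Isotype replicates 1 and 2 lay within that range and the other 3 above it. The log2 change of Birc5 was -0.26 (adjusted p = 0.0043), with -0.25 for Mcm3 (adjusted p = 0.014), -0.22 for Mcm4 (adjusted p = 0.024), -0.21 for Mcm6 (adjusted p = 0.026) and -0.23 for Pcna (adjusted p = 0.034) in edgeR's quasi-likelihood test. Cdc6 fell by 19.8% (adjusted p = 0.030), Mybl2 by 17.8% (adjusted p = 0.032), Cdc45 by 14.1% (adjusted p = 0.032) and Mcm2 by 13.01% (adjusted p = 0.042) in the same test.

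With only the 2 groups in the model, Birc5 was the 1 member called of the 9 (all genes 1.4% lower). Birc5 alone also kept its call against isotype whichever of these 16 tumors was left out. Mcm3 lost it without isotype 5, Mcm4 without isotype 3 or 5, Mcm6 without isotype 3, 4 or 5, Cdc6 without isotype 3 or 5 or aPD1 + aIL2RB 1, 4 or 5, Cdc45 without isotype 2, 4 or 5 or aPD1 + aIL2RB 1 or 4, and Mybl2 without isotype 1, 3, 4 or 5 or aPD1 + aIL2RB 1, 4 or 5. Pcna lost it without any of isotype 2 to 5 or aPD1 + aIL2RB 1 to 6, and Mcm2 without isotype 1, 3, 4 or 5 or aPD1 + aIL2RB 1 to 6. The count of 9 was 1 without isotype 5, 3 without isotype 3, 4 without isotype 4 or aPD1 + aIL2RB 1 or 4, 5 without aPD1 + aIL2RB 5 and 16 without aPD1 + aIL2RB 7. Within the earlier set 4 members were lower (Mcm3, Mcm5, Mcm7 and Pcna, all genes 1.41%, with Mcm5 and Mcm7 named after their values were seen) and within the later set 0 (all genes 0.768%) by edgeR's quasi-likelihood test. T and NK cell markers were lower than in isotype in 9 of 12 cases (5.30 to 55.4 against 73.7 to 86.3 summed CPM), and fibroblast markers were higher in 3 of 9 (4649 to 6515 against 2703 to 5304) and endothelial markers in 2 of 6 (154 to 228 against 125 to 171). The part of these cells was not tested.

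In aPD1 + aGM-CSF + aIL2RB tumors 15 of 42 members were lower than in isotype, against 4.51% of all genes lower and 5.69% higher, with 39 values below 0 and a median of -0.17 (0.0163 for all genes). The falls took in 6 of 9 replication genes, Cdc45 and Cdt1, Mybl2 and 6 of 20 mitotic genes. Pcna measured 202.5, 211.3, 205.2, 236.5 and 209.0 CPM in isotype against 155 to 191 with both antibodies, Mcm7 188, 182, 191, 193 and 194 CPM against 141 to 177 (median 160.0), and Aurkb, the kinase of the passenger complex, 69.7, 63.4, 64.4, 67.8 and 64.9 CPM against 50.5 to 63.1 (median 55.8). Together with Mcm3 (247, 236, 236, 234 and 253 CPM against 177 to 217), these 4 members did not overlap between the groups, where 0.797% of genes lay wholly lower.

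By edgeR's quasi-likelihood test Pcna fell by 18.8% (adjusted p = 0.0029), Mcm3 by 17.3% (adjusted p = 0.0038), Mcm6 by 14.7% (adjusted p = 0.0068) and Mcm7 by 16% (adjusted p = 0.0093). Among mitotic genes Ndc80 fell by 18.9% (adjusted p = 0.0073), Birc5 by 15.2% (adjusted p = 0.0060), Cdk1 by 15.6% (adjusted p = 0.018) and Aurkb by 13.6% (adjusted p = 0.031). Mybl2 fell by 17.7% (adjusted p = 0.018), Cdc45 by 15.1% (adjusted p = 0.012) and Cdt1, the licensing factor that is destroyed in S phase, by 18.5% (adjusted p = 0.038). Mcm2 is among the genes named in every group, and Mcm4, Nusap1 and Ccnb2, the other calls, are named after their values were seen.

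Pcna, Mcm3, Mcm6, Mcm7, Cdc45, Birc5 and Ndc80 kept their calls in this comparison whichever of the 16 tumors was left out. Mybl2 lost its call without isotype 5, Cdk1 without isotype 2 or 4, Aurkb without isotype 1, 2 or 4, Nusap1 without any 1 isotype tumor, and Cdt1 without isotype 2, 3, 4 or 5 or aPD1 + aGM-CSF + aIL2RB 9 or 11. Mcm2 lost it without isotype 1, 3, 4 or 5 or tumors 1, 2, 5, 6 or 11 given both antibodies, Mcm4 without any isotype tumor or 1, 2, 3, 5 or 6, and Ccnb2 without any isotype tumor or 1, 2, 5, 7, 8 or 11. The count of 15 was 8 without isotype 4 and 9 without isotype 2 or 5. Within the earlier set 3 members were lower (Pcna, Mcm3 and Mcm5, the last named after its values were seen, all genes 1.01%), within the later set 11 (all genes 6.44%), and Pcna and Mcm3 were in both. T and NK cell markers were lower in 7 of 12 cases (0.98 to 118 summed CPM) and fibroblast markers higher in 5 of 9 (5060 to 6706), endothelial markers were higher in 3 of 6, with sums that did not overlap (172 to 229 against 125 to 171 summed CPM), and their part was not tested.

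Between the groups given blocking antibodies, Top2a was called in both comparisons with aPD1 + aGM-CSF. It was lower in aPD1 + aIL2RB than in aPD1 + aGM-CSF tumors by 12.5% (log2 change -0.19, SE 0.04, adjusted p = 0.0050 in edgeR's quasi-likelihood test), 1 of 42 members where 0.898% of genes were lower and 0.626% higher, and all 11 aPD1 + aIL2RB tumors, at 796 to 1008 CPM, lay below all 9 aPD1 + aGM-CSF tumors, at 1032 to 1109, as 0.154% of genes did. The call was kept whichever of the 20 tumors was left out. Within sets Top2a changed by -0.24 (adjusted p = 0.041) in the earlier one, where 2 members were lower, Top2a and Mcm3 (all genes 0.986%), and by -0.14 (adjusted p = 0.39) in the later one, where edgeR's quasi-likelihood test called 0 members, and scaling by library size alone gave the same change of -0.19 with an adjusted p of 0.058 in edgeR's quasi-likelihood test. Without aPD1 + aIL2RB 7 the count of members was 3, and without aPD1 + aIL2RB 9 it was 4. In the same comparison markers of T and NK cells were lower in 7 of 12 cases (median log2 change -1.94), and fibroblast markers were higher in 2 of 9 (4649 to 6515 against 3841 to 5360 summed CPM), and their part was not tested.

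Top2a was also lower by 10.0% in aPD1 + aGM-CSF + aIL2RB than in aPD1 + aGM-CSF tumors (log2 change -0.15, adjusted p = 0.034), as were Bub1, a kinetochore kinase (-0.17, adjusted p = 0.029), the helicase factor Cdc45 (-0.18, adjusted p = 0.046) and Mcm3 (-0.18, adjusted p = 0.046), in edgeR's quasi-likelihood test. These were 4 of 42 members against 1.15% of genes lower and 0.98% higher, and they lost their calls with library size alone as scaling. No member was left without aPD1 + aGM-CSF 6 or aPD1 + aGM-CSF + aIL2RB 6. A count of 1 was left without aPD1 + aGM-CSF 3 or 4 or aPD1 + aGM-CSF + aIL2RB 2 or 7, and 2 without aPD1 + aGM-CSF 1, 2, 7, 8 or 9 or aPD1 + aGM-CSF + aIL2RB 3, 8, 9 or 11. Bub1 lost its call without 5 tumors (aPD1 + aGM-CSF 4 or 6, aPD1 + aGM-CSF + aIL2RB 2, 6 or 8), Top2a without 6 (aPD1 + aGM-CSF 1, 3, 4 or 6, aPD1 + aGM-CSF + aIL2RB 6 or 7), Cdc45 without any but aPD1 + aGM-CSF 1 or 5 or aPD1 + aGM-CSF + aIL2RB 5, 8 or 10, and Mcm3 without any but aPD1 + aGM-CSF 4 or 5 or aPD1 + aGM-CSF + aIL2RB 1, 4 or 10. Within the earlier set edgeR's quasi-likelihood test called 0 and within the later set 1, Mcm7 (-0.23, adjusted p = 0.021, all genes 4.85%), named after its values were seen. Here markers of T and NK cells were lower in 3 of 12 cases and fibroblast markers higher in 3 of 9 and endothelial markers in 2 of 6, and their part was not tested.

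Adding aGM-CSF to aIL2RB gave no called member by edgeR's quasi-likelihood test or by DESeq2. At an adjusted p under 0.05, 0.00591% of all genes were higher and 0.0% lower in edgeR's test. At an unadjusted p under 0.05 there was 1 member, and the share of all genes at that threshold is not given. The smallest p in edgeR's quasi-likelihood test belonged to Cdk1 (-0.12, adjusted p = 0.67), Cdt1 (-0.14, adjusted p = 0.72) and E2f1 (-0.09, adjusted p = 0.72). Mcm7 differed between the sets in this comparison (0.06 earlier, -0.21 later, difference -0.27, adjusted p = 0.047, all genes 1.94%). The interaction of aIL2RB with aGM-CSF, which asks whether the antibodies together did other than the sum of each, likewise called 0 members (4 at an unadjusted p under 0.05, 0 by DESeq2). At an adjusted p under 0.05, 5.29% of all genes were higher and 3.05% lower in it. Nusap1 (-0.18, adjusted p = 0.12), Ccnb1 (-0.18, adjusted p = 0.12) and Tpx2 (-0.17, adjusted p = 0.14) had the smallest p in edgeR's quasi-likelihood test. Without aPD1 2 the interaction called 2 members, and without aPD1 3 or aPD1 + aIL2RB 9 it called 1. Within the later set 5 members passed, Ccnb1 (-0.41), Cdc20 (-0.40), Mcm7 (-0.35), Tpx2 (-0.31) and Cdk1 (-0.31), where 2.45% of all genes were lower, and Cdc20, Mcm7 and Cdk1 are named after their values were seen, while in the earlier set Ccnb1 stood at 0.03.

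Scores put the replication and mitotic genes side by side in each tumor. A score is the mean over genes of log2 CPM after each gene was scaled to a mean of 0 and an SD of 1 over the 42 tumors, and it carries no p here. The replication score averaged 1.06 ± 0.45 in isotype (SD, n = 5), 0.53 ± 0.51 in aPD1 (n = 6), 0.27 ± 0.50 with aGM-CSF added (n = 9), -0.48 ± 1.03 with aIL2RB added (n = 11) and -0.52 ± 0.64 with both added (n = 11). The mitosis score averaged 0.80 ± 0.29, -0.21 ± 0.74, 0.40 ± 0.49, -0.24 ± 0.77 and -0.33 ± 0.53 in the same groups. The order of the groups was not the same within the sets. Replication averaged 0.63, 0.82, -0.13, -1.23 and -0.83 in the earlier set and 1.35, 0.25, 0.77, 0.43 and -0.14 in the later one, so that aPD1 + aIL2RB lay below aPD1 in the earlier set and above it in the later. Mitosis averaged 0.76, 0.35, 0.14, -0.51 and -0.37 in the earlier set, where both aIL2RB groups lay below aPD1, and 0.83, -0.76, 0.72, 0.08 and -0.29 in the later one, where they lay above it. The score of all 42 members was 0.79 ± 0.32, 0.07 ± 0.50, 0.35 ± 0.41, -0.33 ± 0.71 and -0.36 ± 0.47.

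Mitosis minus replication averaged -0.26 ± 0.36 in isotype, -0.74 ± 0.60 in aPD1, 0.12 ± 0.42 with aGM-CSF added, 0.23 ± 0.77 with aIL2RB added and 0.18 ± 0.55 with both added. Of 6 aPD1 tumors 5 were below 0, from -1.61 to 0.26. Against aPD1 this difference was higher by 0.86, 0.97 and 0.92 in the groups given aGM-CSF, aIL2RB and both, with a within-group SD of 0.59, and it was higher in both sets. Within the groups it was lower in the later set than in the earlier one, at -0.46 and -1.01 in aPD1, 0.72 and -0.35 with aIL2RB added and 0.46 and -0.14 with both added. The score of all members was lower by 0.40 with aIL2RB added and by 0.42 with both added than in aPD1. Leaving out single tumors moved these differences over -0.55 to -0.24 and -0.54 to -0.27. Scaling by library size alone turned both groups to 0.04 and 0.06 above aPD1. Within the later set both groups were above aPD1 too, by 0.47 and 0.13. Within the earlier set both were below it, with means of 0.45 in aPD1, -0.74 with aIL2RB added and -0.50 with both added.

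**Figure D4:**
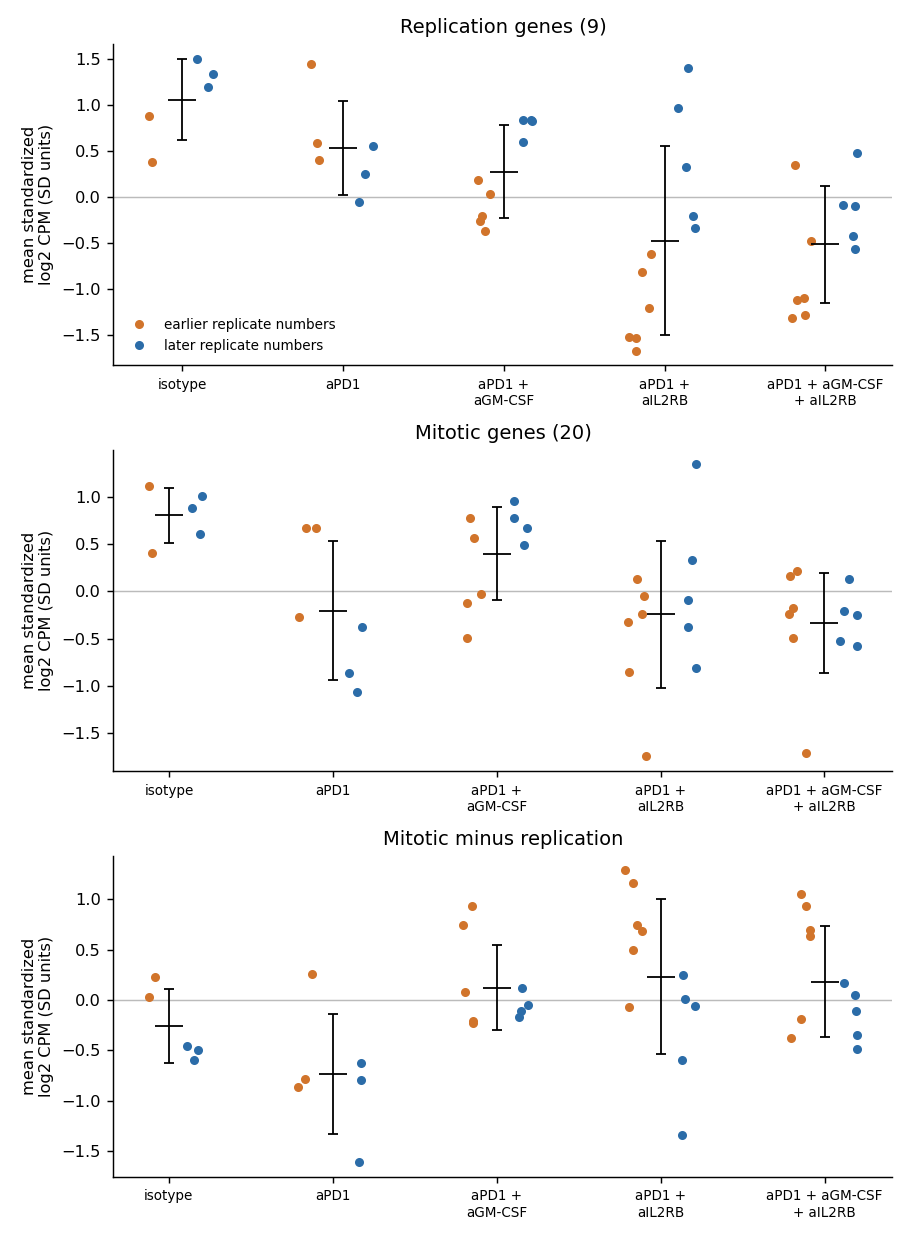
Score of the replication genes, of the mitotic genes and mitosis minus replication (in SD units) in each of the 42 tumors by group, with the mean ± SD as bars, earlier replicate numbers in orange and later numbers in blue. In 5 of 6 aPD1 tumors mitosis minus replication is below 0, and the blocking groups average 0.12 to 0.23.

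The sets themselves differed in the members, with treatment in the model. Because the division was first seen in these same tumors, the p-values below describe it and are not an independent test of it. In all, 16 members were higher in the later than in the earlier numbers (all genes 13.6%) and 2 were lower (all genes 11.5%). All 9 replication genes were higher (median log2 difference 0.11), up to Mcm5 (0.19, adjusted p = 0.00012 in edgeR's quasi-likelihood test), as were Cdt1 (0.22, adjusted p = 0.00025), Cdc45, Ccne1 and Ccne2. Of 20 mitotic genes 3 were higher, Cdk1, Aurka and Plk1, and Cenpf, a kinetochore and matrix protein, was lower (-0.14, adjusted p = 0.0058), with a mitotic median of 0.02. Mki67 was lower by 0.24 (log2 difference -0.24, adjusted p = 0.0015). Members named here beyond the rule are named after their values were seen.

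Both members that were lower in the later set have long transcripts. Mki67 (10061 bases) and Cenpf (11130) are 2 of the 3 members over 7000 bases, the third being the kinesin Cenpe (7910), and across the 42 members the Spearman correlation of length with the difference between the sets was -0.44, a description over genes from the same libraries. Median length was 3371 bases for replication and 3366 for mitotic genes. After subtracting group means, Mki67 moved closest with Cenpf (Pearson's r 0.88), Cenpe (0.79) and Kif11 (0.60) over the 42 tumors and most opposite to Cdt1 (-0.66) and Pcna (-0.55), as a description of tumors that share these libraries. Over all genes at a mean of 10 CPM or more, 942 with transcripts of 7000 bases or more stood above 2149 under 2000 bases by a median of 0.11 (-0.35 to 0.27) in the earlier and -0.08 (-0.46 to 0.14) in the later set, in log2 units. The part of transcript length in the values of Mki67, Cenpf and Cenpe was not tested.

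**Figure D5:**
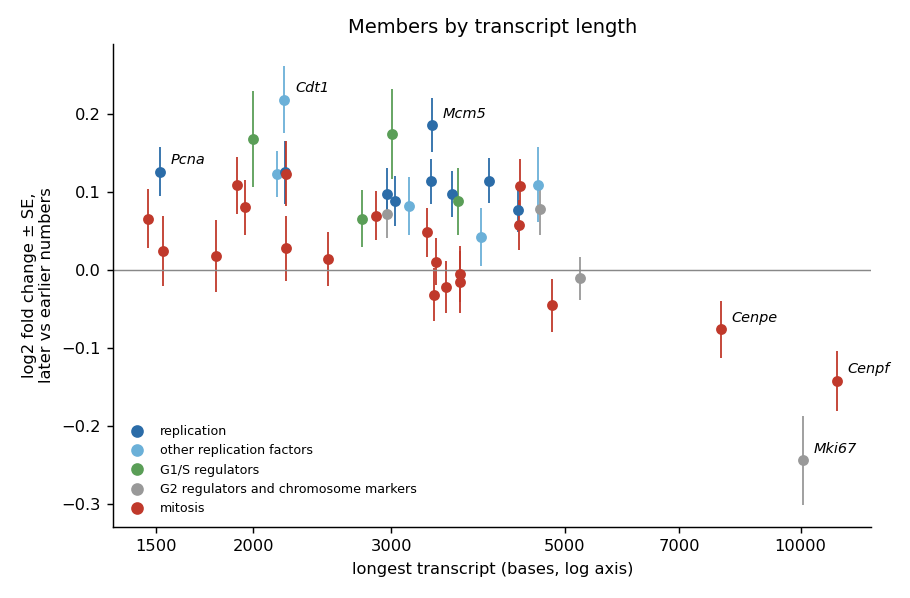
Log2 difference ± SE between later and earlier replicate numbers for each of the 42 members (y axis) against the length of its longest transcript in bases (x axis, log scale), coloured by role. All points are filled, whatever their adjusted p. Mki67 and Cenpf, at 10061 and 11130 bases, are the 2 members below 0 with an adjusted p under 0.05.

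Around the members, 10 further lists with 179 cell cycle genes were read in the same tests. Against isotype, aPD1 tumors had 4 of the 179 higher and 5 lower (median -0.08), or 2.23% and 2.79%, where 6.17% of all genes were higher and 2.54% lower. Those higher were Mxd1, a MYC antagonist (1.03), the p53 targets Trp53inp1 (0.90) and Btg2 (0.85) and the nucleoside kinase Dck (0.34), and those lower were the mitotic kinase Pbk (-0.27), Wee1, which restrains CDK1 (-0.26), the centromere protein Cenpt (-0.22), Cdk2 (-0.21) and the cohesin subunit Rad21 (-0.17). Against aPD1, aPD1 + aGM-CSF tumors had 7 higher and 3 lower (median 0.04), or 3.91% and 1.68%, below the 4.77% and 8.75% of all genes. Rad21 (0.16), the centromere chaperone Hjurp (0.17) and Ect2, which starts cytokinesis (0.18), rose, and Mxd1 (-0.83), Trp53inp1 (-0.68) and Dck (-0.32) fell.

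In aPD1 + aIL2RB against aPD1, 5 of the 179 were higher and 20 lower (median -0.04), or 2.79% and 11.2%, below the 13% and 14.5% of all genes. Of 17 origin licensing and firing genes 3 were lower (Clspn -0.22, Mcm10 -0.25, Wdhd1 -0.17), and of 20 polymerase, clamp loader and ligase genes 4, with Dna2 (-0.26), Lig1 (-0.13) and Pola2 (-0.17) at the smallest p. The E2F factors E2f2 (-0.54) and E2f8 (-0.30) fell, and Tfdp2, a partner with which E2F2 binds DNA, rose (0.31). Of 9 G1 cyclins and kinases Ccnd3 (-0.36) and Ccnd1 (-0.21) fell, and of 21 mitotic kinases, phosphatases and APC/C genes Fzr1 (0.20) and Wee1 (0.23) rose and none fell. Calls in the lists of kinetochore and of spindle genes are not printed here. The lists given therefore do not set replication against mitosis as a whole. Medians within the earlier and later sets were -0.16 and -0.00220 for origin genes and -0.18 and 0.04 for polymerase genes. With both antibodies, 6 were higher and 20 lower than in aPD1 (median -0.04), or 3.35% and 11.2% against 13.1% and 14.3% of all genes, among them again Mcm10 (-0.30), Lig1 (-0.19), Pola2 (-0.24) and E2f2 (-0.64).

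Against isotype, these lists had 0 genes called with aGM-CSF added to aPD1 and 15 lower with aIL2RB added, and with both added 36 were lower and 1 higher, with medians of -0.04, -0.10 and -0.09. These are 8.38% lower with aIL2RB added, against 1.51% of all genes, and 20.1% lower with both, against 4.51%, while 0.559% were higher with both, against 5.69%. The 36 included Lig1 (-0.28), the geminin gene Gmnn (-0.40), Pbk (-0.35) and E2f2 (-0.49), and the 1 higher was the origin recognition subunit Orc3 (0.19).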

How the data were processed

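Whole MC38 tumors were profiled by poly(A) RNA-seq. Per the labels and methods, the authors aligned reads with Bowtie 1.2.3 to transcriptomes of the CC founder strains built from GRCm38 and used gbrs to obtain an expected count for each gene over all haplotypes. The deposited expected counts were not normalized, and 15.2% of them are not whole. They were rounded, and the 16932 genes kept by filterByExpr (minimum count 10, total 15) were scaled by TMM and tested in edgeR 4.0.16 (R 4.3.3) by quasi-likelihood, with all 42 tumors and 5 groups in 1 model and p-values adjusted by the Benjamini-Hochberg method at 0.05. DESeq2 1.42.0 was an alternative, as were other scalings, filters, sets of tumors, a replicate block, and leaving out each tumor. Scores used log2 CPM with a prior count of 2 (alternative 0.5) in Python 3.11.15 with pandas 2.3.3. The procedure was tested on simulated data.

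Symbols of GENCODE vM21 matched 26629 of 26811 identifiers. Per comparison, up to 4 called members of each role with the smallest p were named, or the 3 with the smallest p where none was called, and up to 3 called genes of each other list. Mki67, Top2a, Cdk1, Ccnb1, Mcm2, Mcm5, Pcna, Rrm2, E2f1 and Foxm1 were described in every group. Not every gene the rule would name among the other lists is printed. Members and lists were chosen with earlier results of these data known. No tumor was left out. Reads of near-identical copies may have been divided between genes by the authors' counting.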

Additional observations from a re-analysis of the deposited data

Results flagged for a closer look

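In groups of 4 to 10 tumors, 7 of 126 tests of a member in a group, and 0 of 12 tests of a score, found a tumor whose gap to its nearest neighbour was large for the range of the group. Chance alone would give about 1 in 20 groups. Pcna stood at 236.5 CPM in isotype replicate 4, with the next tumor at 211.3. Cdc45 was low in aPD1 replicate 1, at 40.97 CPM against 48.0 in the nearest tumor. In aPD1 replicate 3, 3 mitotic genes were high together: Cdk1 stood at 139 CPM (nearest 118), Ccnb2 at 61.5 (nearest 54.3) and Plk1 at 75.9 (nearest 68.5). In aPD1 + aGM-CSF tumors, Cenpf stood at 201 CPM in replicate 5 (nearest 168) and Kif23 at 88.5 CPM in replicate 3 (nearest 96.5).

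For 3 results the effect of an antibody differed between the earlier and the later replicate numbers in a test of the difference itself by edgeR's quasi-likelihood method. Mcm5 differed by 0.48 on the log2 scale in aPD1 + aIL2RB against aPD1 (adjusted p = 0.0072) and by 0.44 in aPD1 + aGM-CSF + aIL2RB against aPD1 (adjusted p = 0.0012), with the same aPD1 tumors in both. Mcm7 differed by -0.27 in aPD1 + aGM-CSF + aIL2RB against aPD1 + aIL2RB (adjusted p = 0.047).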

How the results depend on the processing

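Of 1527 values of named members under alternatives, 1199 kept their direction and side of the threshold, 310 lost the threshold, 16 passed it and 2 turned, both within 1 set: Mcm3 in aPD1 + aIL2RB against aPD1 (0.00486, later set) and Ccnb1 in the interaction (0.0305, earlier set). For aPD1 against isotype, the 3 calls became 1 with size factors of DESeq2 or a total of at least 5 counts, 10 with library size only or in the later set, 5 with the set as a term and 0 in the earlier set. For aPD1 + aGM-CSF against aPD1, 0 became 3 with library size only, 1 with only the groups compared and 5 in the later set, each higher. For aPD1 + aIL2RB against aPD1, the 8 lower calls became 14 in the earlier set and 2 with only the groups compared. The calls were also 2 with library size only (1 lower, 1 higher) and in the later set (0 lower, 2 higher). For aPD1 + aGM-CSF + aIL2RB against aPD1, the 5 lower calls became 2 with library size only, and the later set gave 3 (2 lower, 1 higher). Against isotype, the 9 calls of aPD1 + aIL2RB became 1 with only the groups compared, 4 in the earlier and 0 in the later set, and the 15 with both antibodies became 3 in the earlier set. For aPD1 + aIL2RB against aPD1 + aGM-CSF, 1 became 0 with library size only or in the later set (all genes 0.732% and 0.289% lower), 2 with only the groups compared or in the earlier set (1.95% and 0.986%) and 3 with DESeq2 or the set as a term (1.36% and 1.27%). For both antibodies against aPD1 + aGM-CSF, 4 became 0 with library size only or in the earlier set (all genes 0.656% and 0.148% lower) and 1 with a total of at least 5 counts or in the later set (0.475% and 4.85%). The interaction gave 5 in the later set (all genes 2.45% lower). Leaving out each tumor gave 0 to 8, 0 to 4, 3 to 10 and 4 to 6 calls against isotype and aPD1 in the order above, 0 to 0, 1 to 16 and 8 to 19 for the blocking groups against isotype, 1 to 4, 0 to 4 and 0 to 0 between blocking groups and 0 to 2 for the interaction. These ranges stand without the shares of all genes, so they do not show whether members moved more than other genes. Fewer tumors remained within a set. The other causes were not tested.

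For the score of all members, aPD1 minus isotype changed to -0.14 in the earlier set, while in the later set the means were 0.93 in isotype and -0.31 in aPD1. Differences were -0.39 and 1.03 (earlier, later) for aPD1 + aGM-CSF minus aPD1 and -1.18 and 0.47 for aPD1 + aIL2RB minus aPD1. For both antibodies minus aPD1 the difference was 0.13 in the later set, while in the earlier set the means were -0.50 with both and 0.45 in aPD1. The difference of mitosis minus replication from aPD1 stayed above 0 in each alternative run.

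Replicate numbers did not pair the tumors: over 67 pairs with the same number the correlation of deviations was -0.17 to 0.19 (median 0.03), 16 pairs were over 0.1, and 8 of 42 tumors were closest to their own number. With the replicate number as a block, the calls were 4 for aPD1 against isotype, 1 (lower), 12 and 13 against aPD1 for aGM-CSF, aIL2RB and both, 0, 23 and 27 (1 of them higher) against isotype, 5, 7 and 0 between blocking groups and 0 for the interaction. Of all genes, 3.55% were lower than in isotype with aPD1 under this block, 7.32%, 15.2% and 16.9% were lower than in aPD1, and 0.00591%, 7% and 12% lower than in isotype in the blocking groups, with 1.09%, 2.94% and 0% lower between blocking groups and 2.16% lower and 2.76% higher for the interaction. Each member exceeded the filter in all tumors, of which aPD1 + aGM-CSF + aIL2RB 4 was the shallowest (7155486 counts). Without it, calls of the group with both antibodies were 6 against aPD1, 19 against isotype and 3 against aPD1 + aGM-CSF, all lower, where 15.1%, 4.91% and 1.19% of all genes were lower.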
